A study of Mus musculus with 8 samples.

Results

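The p53 target genes described here are 10 genes that the transcription factor p53 is known to switch on: Cdkn1a, Ccng1, Gadd45a and Btg2, which act in growth arrest, Bbc3, Phlda3, Trp53inp1 and Zmat3, which act in cell death, and Mdm2 and Sesn2, which act in feedback and stress. They were chosen by name, and they are 10 of the 52550 genes measured in each library. RNA was sequenced from pre-pro-B and pro-B cells that had been separated by flow cytometry from mouse bone marrow. The mice were wild type (WT) or lacked lactoferrin (Lf-/-), both of the C57BL/6J strain, received no treatment, and the WT mice were littermates of matched age. The study defined pro-B cells as B220+CD43+IgM-. Of 7 libraries, WT and Lf-/- pre-pro-B cells had 2 each, Lf-/- pro-B cells had 2 and WT pro-B cells had 1, while a second sample of WT pro-B cells is not analysed here. The age of the mice was not given in the sources used here.

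p53 is a transcription factor that Mdm2 keeps scarce by marking it for degradation. DNA breaks and other stresses free p53 from Mdm2, and p53 then switches on genes that halt the cell cycle, genes that kill the cell, and Mdm2 itself, which closes the loop. In developing B cells the Rag enzymes cut DNA at the immunoglobulin genes, and p53 is known to remove cells whose breaks are not repaired.

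Levels are given in FPKM, the number of sequenced fragments of a gene relative to its length and to the total of the library. The unit was inferred from the values. The FPKM of a library summed to between 694578 and 834693. In 6 libraries the values fell on even steps, and the height of a step corresponded to between 10800000 and 15300000 fragments. The library of Lf-/- pre-pro-B replicate 2 stood apart from the others. Only 12172 genes were detected in it, while the 6 others had 19477 to 20250 each, and its depth could not be read. Of 3478 genes at 5 FPKM or more in each of the other libraries, it listed 64 at 0, and each other library listed 0 of such genes. For this library a value of 0 is therefore given as listed at 0. The median absolute log2 difference between the 2 libraries of a group over 10793 genes was 0.88 (Lf-/- pre-pro-B), 0.26 (WT pre-pro-B) and 0.32 (Lf-/- pro-B). Where a result depended on this library, the main values are given with and without it. Without it, pre-pro-B cells had 1 Lf-/- and 2 WT libraries, the spread came from the WT libraries alone, and differences of that stage are given without a p-value. The methods of the study speak of 3 mice in each group and a figure legend of 2 repeats, and the labels do not say that each library came from a separate mouse, so p-values measure the spread between these libraries.

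In FPKM, Ltf, the gene of lactoferrin, measured 2143 and 2731 (WT pre-pro-B), 2650 (the lone WT pro-B), 88.2 and 149 (Lf-/- pre-pro-B), and 168 and 96.0 (Lf-/- pro-B). All 4 Lf-/- libraries were far below all 3 WT libraries, as labelled. With stage as a term in limma, Ltf fell by 4.38 on the log2(FPKM + 1) scale (standard error 0.33, adjusted p = 0.00206). It fell by 4.57 when Lf-/- pre-pro-B replicate 2 was left out (adjusted p = 0.000361).

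The labels were also checked against marker genes. Neutrophil granule genes (18 genes, 0 of them at 0 in any library) made up 39.2% and 39.1% of all FPKM (WT pre-pro-B), 53.2% (the lone WT pro-B), 37.8% and 25.4% (Lf-/- pre-pro-B), and 34.7% and 39.7% (Lf-/- pro-B), with S100a8 on top throughout. WT pro-B thus had the largest share and Lf-/- pre-pro-B replicate 2 the smallest. FPKM divide by a library's total, so such a share pushes down the values of the remaining genes. In bulk libraries, fewer cells of a type and less RNA per cell cannot be told apart.

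Across all 7 libraries, Btg2 was the most abundant of the 10 targets, with a mean of 82.1 FPKM, followed by Gadd45a with 32.8 FPKM and Cdkn1a with 23.8 FPKM. Bbc3, Mdm2, Ccng1, Trp53inp1 and Sesn2 had means between 2.80 and 6.31 FPKM. Phlda3 and Zmat3 had means of 0.579 and 0.0373 FPKM. Genes were tested when at least 2 of the libraries compared had 1 FPKM or more, which 8 of the 10 targets passed. Phlda3 reached 1 FPKM in 1 library and Zmat3 in 0 libraries, so these 2 genes did not pass the filter and are given by their values. A gene below 1 FPKM in every library of 1 genotype can pass only if it is higher in the other, and over the 7 libraries 822 genes passed through Lf-/- libraries alone and 52 through WT libraries alone. Of the 8 targets, 0 were among them. The summed FPKM of the 10 targets came to 128 and 79.5 (WT pre-pro-B), 103 (the lone WT pro-B), 224 and 139 (Lf-/- pre-pro-B), and 270 and 178 (Lf-/- pro-B). Each of the 4 Lf-/- sums was above each of the 3 WT sums, and Btg2 was the largest part of the sum in each library. Without Btg2 the sums overlapped, with 75.1 in Lf-/- pre-pro-B replicate 1 and 79.2 in WT pre-pro-B replicate 1. They overlapped after median-ratio scaling too, with 106 in Lf-/- pre-pro-B replicate 2 and 139.7 in WT pro-B. The plot of the targets by library shows each value.

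**Figure D1:**
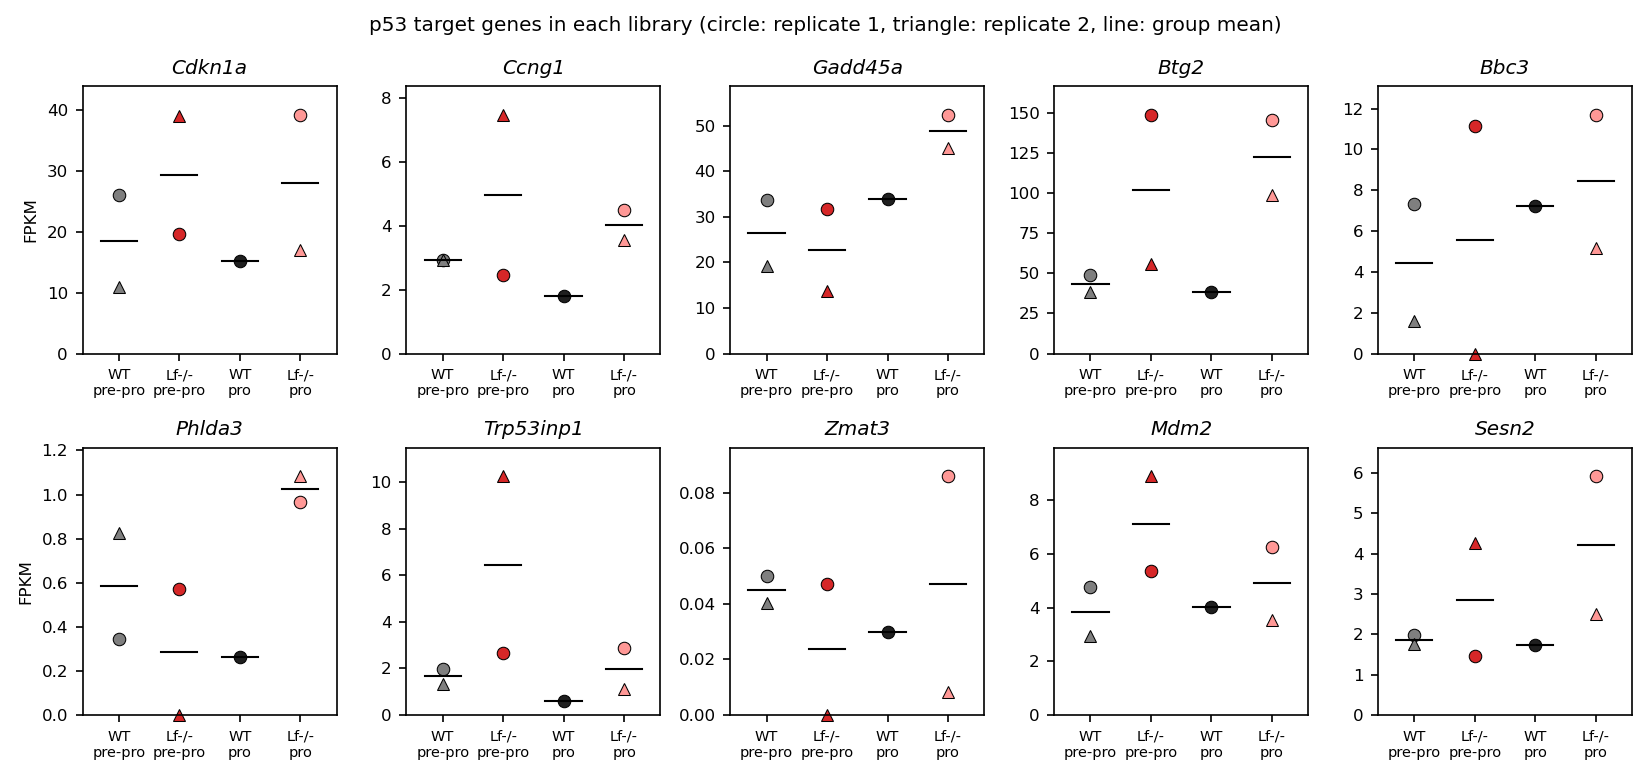
FPKM of the 10 p53 target genes (y axis, each panel with its own scale from 0) in the 4 groups (x axis). Each point is 1 library, circles are replicate 1, triangles replicate 2, and lines are group means. Btg2 was higher in each of the 4 Lf-/- libraries than in each of the 3 WT libraries, while the genotypes overlapped for the other 9 genes. The same held for 1065 of 10793 genes (9.87%), and after median-ratio scaling Btg2 overlapped too.

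The promoters of the targets that the results turn on are printed with their genes. They are windows of 250 bases before to 50 bases after a start site, from RefSeq on GRCm38.p6, written along the gene's strand. Of the 10 targets, 8 had at least 1 window, and these had 11 windows in all. Zmat3 and Trp53inp1 are only named. The windows were searched on both strands for the p53 half-site of 10 bases, which reads the same on either strand, and for 2 half-sites side by side. Capitals mark 2 adjoining half-sites with at most 1 mismatch or, where there was none, 1 exact half-site. An exact half-site was found in 8.36% of all 32851 windows, and 2 adjoining half-sites with at most 1 mismatch in 29 windows (0.0883%). Among the targets, windows of 4 genes (Cdkn1a, Ccng1, Gadd45a and Mdm2) held an exact half-site, and those of Cdkn1a and Ccng1 held the adjoining pair. A match is a description of the letters and was not tested for binding.

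Of the arrest genes, Cdkn1a encodes p21, which inhibits the kinases that drive the cell cycle. It lies at chr17:29090976-29100727 on the plus strand of GRCm38. Its window of the upstream start site, chr17:29090729-29091028 on the plus strand, holds the adjoining half-sites from 51 to 32 bases before that start, and a second window of the gene held no match.
Cdkn1a: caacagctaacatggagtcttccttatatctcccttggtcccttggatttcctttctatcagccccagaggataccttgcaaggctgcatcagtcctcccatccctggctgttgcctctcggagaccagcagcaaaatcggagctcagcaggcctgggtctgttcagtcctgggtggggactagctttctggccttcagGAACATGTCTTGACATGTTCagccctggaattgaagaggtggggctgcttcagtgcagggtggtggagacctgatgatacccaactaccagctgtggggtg
In FPKM, Cdkn1a measured 26.1 and 10.9 (WT pre-pro-B), 15.2 (the lone WT pro-B), 19.6 and 39.0 (Lf-/- pre-pro-B), and 39.2 and 16.9 (Lf-/- pro-B). It was high in 1 library of each Lf-/- group and lower in the other, and both of the lower values lay inside the WT range. The order of the group means was Lf-/- pre-pro-B (29.3 ± 13.7 FPKM, SD, n = 2), Lf-/- pro-B (28.1 ± 15.8 FPKM, SD, n = 2), WT pre-pro-B (18.5 ± 10.7 FPKM, SD, n = 2) and WT pro-B (15.2 FPKM), and each neighbouring pair in this order overlapped. The log2 difference between Lf-/- and WT was 0.68 in pre-pro-B cells (standard error 0.60, adjusted p = 0.941 from limma) and 0.70 with stage as a term (standard error 0.44, adjusted p = 0.690 from limma). Both differences were within the spread between libraries, and they were 0.20 and 0.47 without Lf-/- pre-pro-B replicate 2. The exons of Cdkn1a overlap those of AC167363.2 on the opposite strand, and whether counting used the strand was not given in the sources used here.

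Ccng1 encodes cyclin G1, which brings a phosphatase to Mdm2. It lies at chr11:40748552-40755311 on the minus strand, and its window, chr11:40755237-40755536 on the minus strand, holds adjoining half-sites from 195 to 176 bases before the start.
Ccng1: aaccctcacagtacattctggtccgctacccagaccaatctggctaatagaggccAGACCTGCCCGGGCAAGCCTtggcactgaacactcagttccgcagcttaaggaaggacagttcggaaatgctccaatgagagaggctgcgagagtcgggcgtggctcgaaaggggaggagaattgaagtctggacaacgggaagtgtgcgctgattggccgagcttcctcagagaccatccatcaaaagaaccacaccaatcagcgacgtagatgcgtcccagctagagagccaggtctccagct
In FPKM, Ccng1 measured 2.94 and 2.92 (WT pre-pro-B), 1.81 (the lone WT pro-B), 2.46 and 7.49 (Lf-/- pre-pro-B), and 4.50 and 3.55 (Lf-/- pro-B). Of the 4 Lf-/- libraries, 3 were above every WT library, and Lf-/- pre-pro-B replicate 1 was below both WT pre-pro-B libraries. The Lf-/- pro-B group (mean 4.02 ± 0.673 FPKM, SD, n = 2) lay above the WT pre-pro-B group (2.93 ± 0.0142 FPKM, SD, n = 2), and this lay above the WT pro-B library, while Lf-/- pre-pro-B (4.97 ± 3.56 FPKM, SD, n = 2) overlapped Lf-/- pro-B. The log2 difference was 0.46 in pre-pro-B cells (standard error 0.58, adjusted p = 0.942 from limma) and 0.61 with stage as a term (standard error 0.38, adjusted p = 0.690 from limma). In pre-pro-B cells the sign rested on 1 library, since the difference was -0.19 without Lf-/- pre-pro-B replicate 2.

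Gadd45a encodes a small nuclear protein that binds PCNA and activates stress kinases. It lies at chr6:67035096-67037457 on the minus strand, where its exons overlap those of E230016M11Rik on the opposite strand, so the 2 genes may share fragments if strand was not used. In FPKM, Gadd45a measured 33.8 and 19.1 (WT pre-pro-B), 33.8 (the lone WT pro-B), 31.7 and 13.8 (Lf-/- pre-pro-B), and 52.4 and 45.2 (Lf-/- pro-B). The 2 Lf-/- pro-B libraries were the highest, and the pre-pro-B genotypes overlapped. Lf-/- pro-B (48.8 ± 5.11 FPKM, SD, n = 2) lay above the WT pro-B library, which was level with the higher of the WT pre-pro-B libraries. The log2 difference between genotypes was -0.27 in pre-pro-B cells (standard error 0.57, adjusted p = 0.959 from limma) and 0.04 with stage as a term (standard error 0.39, adjusted p = 0.972 from limma). These became 0.31 and 0.41 when Lf-/- pre-pro-B replicate 2 was left out. After median-ratio scaling, which puts the typical gene of each library at the same level, the difference with stage as a term was -0.30, so its sign depended on the scaling. Between stages, pro-B minus pre-pro-B, the difference of Gadd45a was 0.86 (standard error 0.39, adjusted p = 0.947 from limma), which did not pass.

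Btg2 encodes a growth-inhibiting protein that binds the deadenylase complex shortening mRNA tails, and it is also known as an immediate early gene, switched on within minutes by growth signals. It lies at chr1:134075170-134079120 on the minus strand. Its window, chr1:134079106-134079405 on the minus strand, is shown because Btg2 had the largest difference of the targets with stage as a term and in pro-B cells, and these letters held no match.
Btg2: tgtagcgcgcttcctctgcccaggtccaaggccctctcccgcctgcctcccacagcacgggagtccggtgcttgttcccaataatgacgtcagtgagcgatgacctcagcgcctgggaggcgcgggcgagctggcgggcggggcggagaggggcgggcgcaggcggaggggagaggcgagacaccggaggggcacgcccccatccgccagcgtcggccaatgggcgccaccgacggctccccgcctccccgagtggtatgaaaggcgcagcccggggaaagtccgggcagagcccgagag
In FPKM, Btg2 measured 49.0 and 38.0 (WT pre-pro-B), 38.2 (the lone WT pro-B), 149 and 55.6 (Lf-/- pre-pro-B), and 146 and 98.8 (Lf-/- pro-B). The 3 WT libraries lay close together, and each of the 4 Lf-/- libraries was above them, with Lf-/- pre-pro-B replicate 2 the nearest. Of 10793 genes, 9.87% also had all Lf-/- libraries above all WT libraries. Lf-/- pro-B (122 ± 33.2 FPKM, SD, n = 2) and Lf-/- pre-pro-B (102 ± 66.0 FPKM, SD, n = 2) overlapped, as did WT pre-pro-B (43.5 ± 7.78 FPKM, SD, n = 2) and WT pro-B. The log2 difference was 1.06 in pre-pro-B cells (standard error 0.58, adjusted p = 0.941 from limma) and 1.29 with stage as a term (standard error 0.39, adjusted p = 0.439 from limma), so Btg2 did not pass the adjustment over all genes. When Lf-/- pre-pro-B replicate 2 was left out, the difference with stage as a term was 1.69 (standard error 0.36, adjusted p = 0.0459 from limma), and Btg2 rose in each of the 3 remaining Lf-/- libraries. That fit called 123 of 10529 genes, which is 1.17%. In pre-pro-B cells alone, Btg2 was at 1.76 without that library. In pro-B cells the 2 Lf-/- libraries were 1.90 and 1.35 above the WT library on the log2 scale.

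Among the death genes, Bbc3 encodes Puma, which binds and blocks the survival proteins of the Bcl2 family. It lies at chr7:16308393-16318205 on the plus strand. In FPKM, Bbc3 measured 7.30 and 1.61 (WT pre-pro-B), 7.25 (the lone WT pro-B), 11.2 and listed at 0 (Lf-/- pre-pro-B), and 11.7 and 5.17 (Lf-/- pro-B). The 2 highest libraries were both Lf-/-, but the lowest was Lf-/- as well, and the genotypes overlapped. The WT pre-pro-B libraries differed from each other, with about 169 and 40.4 fragments behind them. The log2 difference was -0.42 in pre-pro-B cells (standard error 1.26, adjusted p = 0.966 from limma) and -0.21 with stage as a term (standard error 0.81, adjusted p = 0.926 from limma). Both signs rested on the value listed at 0. Without that library the differences were 1.38 in pre-pro-B cells and 0.74 with stage as a term (standard error 0.49, adjusted p = 0.748 from limma for the latter). Between stages, pro-B minus pre-pro-B, the difference of Bbc3 was 1.14 (standard error 0.81, adjusted p = 0.947 from limma), and it was 0.18 without that library.

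Trp53inp1 encodes a nuclear stress protein that enhances the action of p53 and takes part in autophagy. It lies at chr4:11156431-11174379 on the plus strand. In FPKM, Trp53inp1 measured 1.97 and 1.34 (WT pre-pro-B), 0.587 (the lone WT pro-B), 2.66 and 10.3 (Lf-/- pre-pro-B), and 2.88 and 1.11 (Lf-/- pro-B). Lf-/- pre-pro-B replicate 2 was far above all others, 3 of the 4 Lf-/- libraries were above every WT library, and Lf-/- pro-B replicate 2 lay inside the WT range. The log2 difference was 1.28 in pre-pro-B cells (standard error 0.66, adjusted p = 0.941 from limma) and 1.11 with stage as a term (standard error 0.45, adjusted p = 0.656 from limma). They were 0.47 and 0.66 without Lf-/- pre-pro-B replicate 2 (adjusted p = 0.532 from limma for the latter). Between stages, pro-B minus pre-pro-B, the difference was -0.99 (standard error 0.45, adjusted p = 0.947 from limma).

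Phlda3, which encodes a membrane-binding protein that competes with the survival kinase Akt, lies at chr1:135766119-135769136 on the plus strand. In FPKM, Phlda3 measured 0.343 and 0.827 (WT pre-pro-B), 0.261 (the lone WT pro-B), 0.571 and listed at 0 (Lf-/- pre-pro-B), and 0.966 and 1.08 (Lf-/- pro-B). The 2 Lf-/- pro-B libraries were the highest, with about 16.4 and 25.8 fragments, compared with about 5.62 in WT pro-B. Zmat3, which encodes an RNA-binding zinc finger protein, lies at chr3:32334792-32366014 on the minus strand. In FPKM, Zmat3 measured 0.05 and 0.0402 (WT pre-pro-B), 0.0300 (the lone WT pro-B), 0.0471 and listed at 0 (Lf-/- pre-pro-B), and 0.0859 and 0.00812 (Lf-/- pro-B). The values above 0 are about 1.42 to 10.7 fragments. Differences of Zmat3 between groups were not detectable at this depth.

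Mdm2, in the feedback group, encodes the ubiquitin ligase that degrades p53. It lies at chr10:117688875-117710758 on the minus strand, and its window, chr10:117710709-117711008 on the minus strand, holds 1 exact half-site from 186 to 177 bases before the start.
Mdm2: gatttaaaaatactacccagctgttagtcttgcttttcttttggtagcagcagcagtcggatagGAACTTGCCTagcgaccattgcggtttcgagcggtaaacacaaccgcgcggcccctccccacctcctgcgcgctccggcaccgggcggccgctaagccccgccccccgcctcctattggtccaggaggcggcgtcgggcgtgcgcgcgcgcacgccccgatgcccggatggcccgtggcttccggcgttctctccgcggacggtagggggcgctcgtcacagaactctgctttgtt
In FPKM, Mdm2 measured 4.76 and 2.94 (WT pre-pro-B), 4.04 (the lone WT pro-B), 5.35 and 8.90 (Lf-/- pre-pro-B), and 6.27 and 3.54 (Lf-/- pro-B). Both Lf-/- pre-pro-B libraries and 1 Lf-/- pro-B library were above every WT library, and the other Lf-/- pro-B library was below WT pro-B. The order of the group means was Lf-/- pre-pro-B (7.12 ± 2.51 FPKM, SD, n = 2), Lf-/- pro-B (4.91 ± 1.93 FPKM, SD, n = 2), WT pro-B and WT pre-pro-B (3.85 ± 1.29 FPKM, SD, n = 2), with overlap of each neighbouring pair. The log2 difference was 0.74 in pre-pro-B cells (standard error 0.50, adjusted p = 0.941 from limma) and 0.52 with stage as a term (standard error 0.35, adjusted p = 0.695 from limma). They were 0.41 and 0.30 without Lf-/- pre-pro-B replicate 2.

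Sesn2 encodes sestrin 2, which restrains the growth kinase complex mTORC1 under stress. It lies at chr4:132492032-132510501 on the minus strand, and Gm12981 lies within this span on the same strand with no shared exon. In FPKM, Sesn2 measured 1.98 and 1.76 (WT pre-pro-B), 1.73 (the lone WT pro-B), 1.46 and 4.26 (Lf-/- pre-pro-B), and 5.93 and 2.51 (Lf-/- pro-B). The WT libraries lay close together, 3 of the 4 Lf-/- libraries were above them, and Lf-/- pre-pro-B replicate 1 was below them. The log2 difference was 0.33 in pre-pro-B cells (standard error 0.55, adjusted p = 0.947 from limma) and 0.54 with stage as a term (standard error 0.40, adjusted p = 0.700 from limma). The first became -0.22 and the second 0.31 without Lf-/- pre-pro-B replicate 2.

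Over all targets in pre-pro-B cells, 0 of the 8 tested passed an adjusted p of 0.05 in limma, as did 0% of the 9720 genes tested. At an unadjusted p under 0.05, 284 genes (2.92%) passed, 194 of them higher and 90 lower in Lf-/- cells, and 0 of the targets did. Of the 8 targets, 6 had differences above 0 and 2 below, with a median of 0.57, while the median of all genes was 0.03. In pro-B cells the single WT library gave no spread of its own, so differences were counted without a test. With 1 mean per group over all 7 libraries, which takes WT pro-B to vary like the other groups, limma called 0 genes, and 451 were higher and 16 lower at an unadjusted p under 0.05. By the count, 1341 of 10793 genes (12.4%) were higher in Lf-/- cells by at least 1 on the log2 scale with both Lf-/- libraries above WT, and 121 were lower by as much. Of the targets, 1 (Btg2) was past this difference. All 8 had a mean difference above 0, from 0.10 for Bbc3 to 1.63 for Btg2, with a median of 0.78, and the median of all genes was 0.48. Of all genes 87.0% lay above 0 too, and after median-ratio scaling or quantile normalization 5 of the 8 targets did. For Bbc3 and Mdm2, 1 of the 2 Lf-/- pro-B libraries was below WT.

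With stage as a term, limma called 20 of 10793 genes (0.185%), 19 higher and 1 (Ltf) lower in Lf-/- cells, and 0 of the 8 targets. At an unadjusted p under 0.05, 699 genes (6.48%) were higher and 75 lower. Of the targets, Btg2 and Trp53inp1 were among the higher genes and 0 were among the lower. The targets had a median of 0.57, with 7 above 0 and Bbc3 below, and the median of all genes was 0.21, with 66.8% of them above 0. Without Lf-/- pre-pro-B replicate 2 these medians were 0.44 and 0.20, and 8 of 8 targets were above 0. Median-ratio scaling moved the median of all genes by -0.27, and that of the targets became 0.30, with 6 above 0 and 2 below. The scaling moves all genes of a library alike, so that the targets were 0.37 above the median of all genes either way says nothing more. Under that scaling, 436 genes were higher and 373 lower at an unadjusted p under 0.05. It moved the median of all genes by -0.48 in pro-B cells, and 432 of 10737 genes were higher and 391 lower by at least 1, with 0 targets among them. Btg2 stayed past 1 in pro-B cells under quantile normalization and under scaling outside the neutrophil granule list, where 833 of 10793 and 1065 of 10798 genes were past it. In pre-pro-B cells the median-ratio shift was -0.13. The plot of differences shows each target with and without the library that stood apart.

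**Figure D2:**
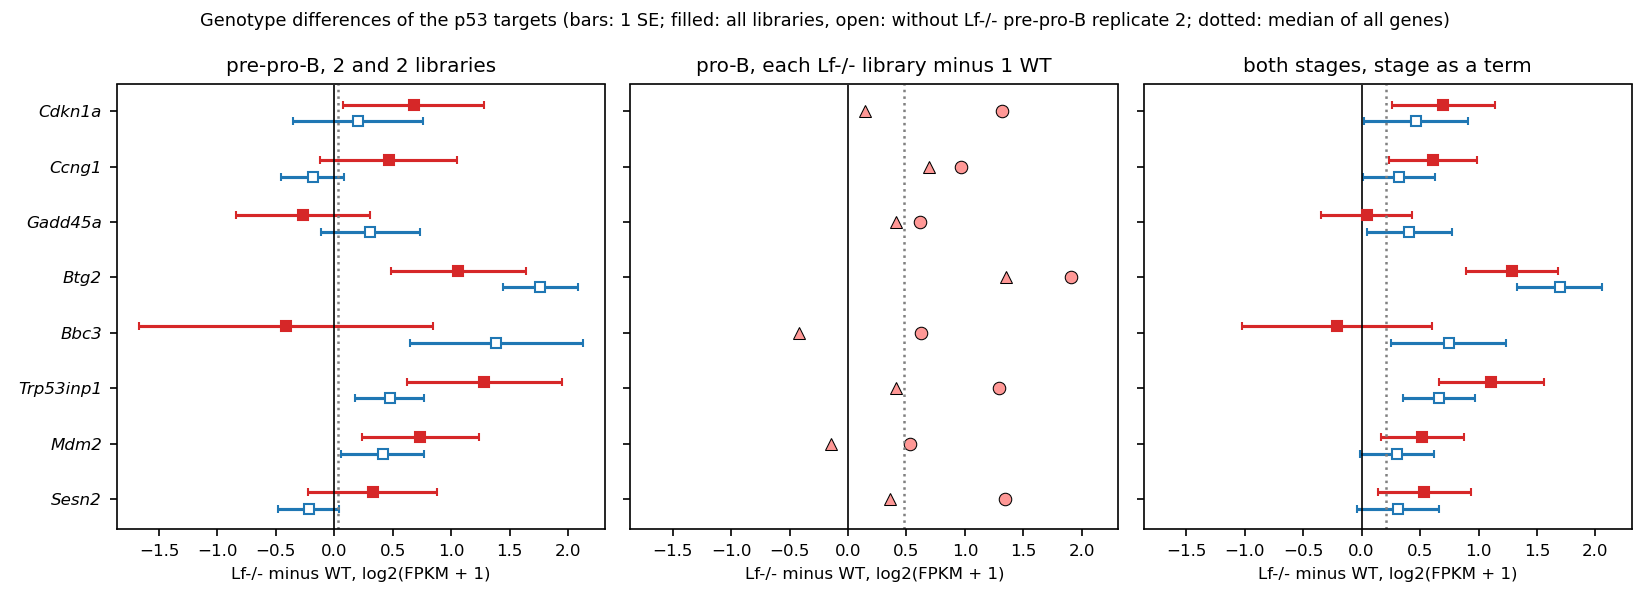
Difference of the 8 tested p53 targets between Lf-/- and WT on the log2(FPKM + 1) scale (x axis), for pre-pro-B cells, for each Lf-/- pro-B library against the 1 WT pro-B library (circle, replicate 1; triangle, replicate 2), and for both stages with stage as a term. Filled squares use all libraries and open squares leave out Lf-/- pre-pro-B replicate 2, bars are 1 standard error, and dotted lines are the median of all genes. Btg2 was at 1.29 with stage as a term and at 1.69 without that library.

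In a plain comparison of ranks, 1065 of 10793 genes (9.87%) had all 4 Lf-/- libraries above all 3 WT libraries, and 122 genes had them all below. Btg2 was the only 1 of the 8 targets above, and 0 were below. Without Lf-/- pre-pro-B replicate 2, 1717 of 10529 genes (16.3%) had all 3 Lf-/- libraries above, and Btg2 was again the only target. With median-ratio scaling, 545 genes were above and 653 below, and the values of Btg2 overlapped. With scaling outside the neutrophil granule list, 772 of 10798 genes were above and 164 below, and Btg2 was above. Between stages with genotype as a term, 1 gene of 10793 (0.00927%) passed the adjusted threshold in limma, and 0 of the targets did. At an unadjusted p under 0.05, 260 genes (2.41%) passed and 0 targets. The targets split evenly, with 4 above and 4 below 0 and a median of 0.02, while all genes had -0.03. Whether the genotype difference differed between the stages was tested as an interaction. There 0 genes (0%) passed in limma, 296 genes (2.74%) had an unadjusted p under 0.05, and 0 targets passed either threshold. The median interaction was 0.44 for the targets and 0.45 for all genes.

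The regulators of p53 were described in the same way. In FPKM, Trp53, the gene of p53 itself, measured 25.9 and 20.7 (WT pre-pro-B), 14.9 (the lone WT pro-B), 18.7 and 42.0 (Lf-/- pre-pro-B), and 31.1 and 28.3 (Lf-/- pro-B). Both Lf-/- pro-B libraries were above every WT library, and Lf-/- pre-pro-B replicate 1 was below both WT pre-pro-B libraries. With stage as a term its log2 difference was 0.54 (standard error 0.36, adjusted p = 0.695 from limma), and 0.33 without Lf-/- pre-pro-B replicate 2. In pre-pro-B cells it was 0.27 and, without that library, -0.29. Mdm4, which blocks p53 at its targets, was between 0.759 and 0.894 FPKM in WT and between 1.03 and 1.71 FPKM in Lf-/- libraries. It passed the filter through the Lf-/- libraries alone, and the genotypes overlapped after median-ratio scaling. Its difference of 0.34 is therefore given without a p-value. Ppm1d, a phosphatase that switches p53 off, was between 2.03 and 4.27 FPKM in WT and between 2.79 and 5.33 FPKM in Lf-/- libraries, which overlapped, with a difference of 0.35 (standard error 0.35, adjusted p = 0.742 from limma).

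Another 49 genes of the p53 pathway were listed by role, of which 34 passed the filter over 7 libraries. Of these, 6 (Mdm4, Atm, Sfn, Rrm2b, Pank1 and Ddit4) passed through the Lf-/- libraries alone and are not counted below. Of the other 28 with stage as a term, 0 were called by limma, 4 were higher and 0 lower in Lf-/- cells at an unadjusted p under 0.05, and 22 lay above and 6 below 0. Of all 9919 genes that passed through both genotypes, 603 were higher at that threshold and 64.9% lay above 0. The median of the 28 genes was 0.40, compared with 0.18 for those genes. With median-ratio scaling 18 lay above and 10 below 0, and the medians were 0.11 and -0.09. Without Lf-/- pre-pro-B replicate 2, limma called 1 of the 28 (Plk2) higher, as it did 101 of the 9871 tested genes that passed through both genotypes. The medians were then 0.31 for the 28 and 0.18 for those genes. Rps27l was the most abundant of the list in each library, and Cdkn2a, which encodes the Mdm2 inhibitor Arf, and Eda2r were listed at 0 in all 7.

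The 4 largest positive differences in this list were those of Plk2, Sfn, Trp53i13 and Sesn1. In FPKM, Plk2, a kinase of the centrosome, measured 1.94 and 1.90 (WT pre-pro-B), 1.04 (the lone WT pro-B), 8.71 and 14.6 (Lf-/- pre-pro-B), and 9.73 and 3.37 (Lf-/- pro-B). Its 4 Lf-/- values were all above the WT values, and the difference was 1.94 (standard error 0.39, adjusted p = 0.152 from limma). Sfn, a 14-3-3 protein that keeps cell cycle enzymes in the cytoplasm, was between 0.569 and 0.794 FPKM in WT and between 2.73 and 10.2 FPKM in Lf-/- libraries, with a difference of 1.74. Sfn was below 1 FPKM in every WT library and passed the filter through the Lf-/- libraries alone, so its difference is given without a p-value. Without Lf-/- pre-pro-B replicate 2, Plk2 was at 1.74 (adjusted p = 0.0393 from limma). Trp53i13 was between 1.83 and 1.97 FPKM in WT and between 2.07 and 15.4 FPKM in Lf-/- libraries, with a difference of 1.31 (0.72 without that library). Sesn1, a relative of Sesn2, was between 1.22 and 1.63 FPKM in WT and between 2.37 and 10.8 FPKM in Lf-/- libraries, with a difference of 1.24 (0.78 without it). After median-ratio scaling, and after scaling outside the neutrophil granule list, Trp53i13 overlapped between genotypes, while Plk2 and Sesn1 did not.

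The 4 largest negative differences were smaller, and 3 of them involved genes listed at 0 in Lf-/- pre-pro-B replicate 2. These were Slc19a2, a thiamine transporter, at -0.51, Chek1, a kinase of the replication checkpoint, at -0.34, and Aen, a nuclease of dying cells, at -0.08. Without that library they were at -0.12, -0.05 and 0.59. Perp, a membrane protein of cell contacts, was at -0.35, and at -0.17 without it. In FPKM, Slc19a2 measured 1.38 and 1.89 (WT pre-pro-B), 1.18 (the lone WT pro-B), 1.55 and listed at 0 (Lf-/- pre-pro-B), and 0.969 and 0.843 (Lf-/- pro-B). Both of its Lf-/- pro-B values were below every WT value. The values overlapped between genotypes for each of these 4 genes. The plot of the pathway by role shows all tested genes.

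**Figure D3:**
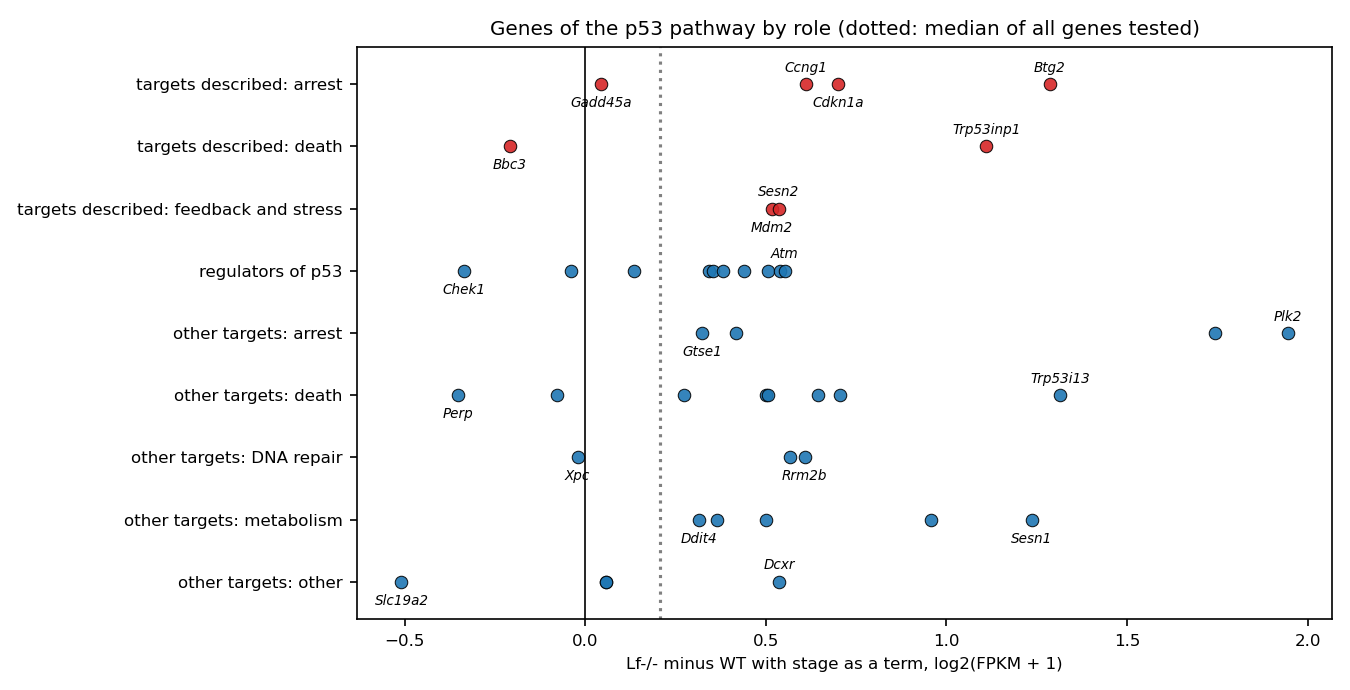
Difference between Lf-/- and WT with stage as a term on the log2(FPKM + 1) scale (x axis) for the 8 tested p53 targets (red) and 34 other genes of the pathway (blue), by role (y axis). Each point is 1 gene, the dotted line is the median of all genes, and all targets and the ends of each other role are named. Plk2 was highest at 1.94 and Slc19a2 lowest at -0.51.

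The 3 genes whose log2 profile over the 7 libraries, each centred on its mean, was nearest to that of Cdkn1a were Tiparp, Tor1aip1 and Pmaip1, with root mean square differences of 0.172, 0.174 and 0.180 among 10793 genes. Pmaip1 encodes Noxa, itself a p53 target. In FPKM, Pmaip1 measured 4.80 and 2.40 (WT pre-pro-B), 2.50 (the lone WT pro-B), 3.48 and 10.2 (Lf-/- pre-pro-B), and 7.24 and 3.26 (Lf-/- pro-B). These genes were picked for their likeness to Cdkn1a, so the likeness is no separate result, and shared control by p53 was not tested. Nearest to Mdm2 were Ago2, Rell1 and Arid5b, with 0.0619, 0.102 and 0.106.

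Other lists were described beside the p53 targets, and their part in the differences of the targets was not tested. Of 19 immediate early genes, a class that is known to include Btg2, which was kept off the list, 18 passed the filter, 2 of them (Fosl2 and Egr2) through the Lf-/- libraries alone. With stage as a term the other 16 all lay above 0, as did 64.9% of the 9919 genes that passed through both genotypes, and the medians were 0.87 and 0.18. Limma called 0 of the 16, and 7 of them and 603 of the 9919 genes were higher at an unadjusted p under 0.05. Their summed FPKM came to 1232 and 2082 (WT pre-pro-B), 848 (the lone WT pro-B), 2360 and 2801 (Lf-/- pre-pro-B), and 3110 and 2745 (Lf-/- pro-B), so that each Lf-/- sum was above each WT sum. After median-ratio scaling they overlapped, with 2130.5 in Lf-/- pre-pro-B replicate 2 and 2229.6 in WT pre-pro-B replicate 2. Without Jund they overlapped as deposited, with 1228 in Lf-/- pre-pro-B replicate 1 and 1862 in WT pre-pro-B replicate 2. Without Fos each Lf-/- sum was above each WT sum, from 1878 to 2449 against 673 to 1161, and also after median-ratio scaling. Fos was the most abundant gene over the libraries, and Egr2 was listed at 0 in Lf-/- pre-pro-B replicate 2. Jund, at 1.90 (standard error 0.38, adjusted p = 0.147 from limma), had the largest difference of the list. Leaving out Lf-/- pre-pro-B replicate 2, 16 of the 16 lay above 0, with a median of 0.80. Limma then called 1 of them higher, as it did 101 of the 9871 tested genes that passed through both genotypes. With all libraries and median-ratio scaling, 14 of the 16 and 41.3% of 9864 such genes lay above 0, with medians of 0.51 and -0.09. At an unadjusted p under 0.05, 3 of the 16 were then higher, as were 367 of those genes.

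Of 18 early B lineage genes, 17 passed the filter, 2 of them (Rag1 and Bach2) through the Lf-/- libraries alone. The other 15 all lay above 0 with stage as a term, as did 64.9% of the 9919 genes that passed through both genotypes. Of the 15, 3 rose (Cd79a and Cd79b among them), as did 19 of the 9919, with medians of 1.96 and 0.18. The summed FPKM of the early B lineage genes came to 935 and 948 (WT pre-pro-B), 439 (the lone WT pro-B), 4059 and 2985 (Lf-/- pre-pro-B), and 3526 and 1969 (Lf-/- pro-B). Cd24a was the most abundant in WT and Cd79a in Lf-/- libraries. Rag1 was listed at 0 in WT pro-B and Rag2 in Lf-/- pre-pro-B replicate 2. Of 12 mature B cell genes, 11 were tested. Compared with 19 of the 9919 genes, 3 of the 11 rose (Ighd, Fcmr and Ms4a1), and all 11 lay above 0, with a median of 1.84. Their summed FPKM came to 6195 and 2417 (WT pre-pro-B), 1513 (the lone WT pro-B), 6843 and 5916 (Lf-/- pre-pro-B), and 6556 and 6512 (Lf-/- pro-B). Ighm was the most abundant in WT pre-pro-B replicate 1 and Cd74 in the other libraries, and Cr2 was listed at 0 in the former. Each Lf-/- library was thus above each WT library in early B lineage RNA. In mature B cell RNA, WT pre-pro-B replicate 1 lay inside the Lf-/- range, and Ighm was the largest part of its sum. Without Ighm the sums did not overlap, from 1129 to 1671 in the WT and from 4342 to 5788 in the Lf-/- libraries. Cd74 alone made up most of each of these sums, with 820 to 1236 FPKM in the WT and 2672 to 3989 FPKM in the Lf-/- libraries. Without Lf-/- pre-pro-B replicate 2, limma called 8 of the 15 early B lineage and 9 of 11 mature B cell genes, all higher. It also called 101 of the 9871 tested genes that passed through both genotypes higher. With all libraries and median-ratio scaling it called 0 of the 15, 2 of 11 and 5 of 9864 such genes higher, with medians of 1.69, 1.48 and -0.09.

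Of 20 cell division genes, 0 were called in limma or had an unadjusted p under 0.05 with stage as a term, and their direction depended on the setting. With all libraries 17 lay above and 3 below 0, with a median of 0.15, compared with 0.21 for all genes. It was 8 above and 12 below without Lf-/- pre-pro-B replicate 2 (median -0.04), and 1 above and 19 below after median-ratio scaling (median -0.16). Their summed FPKM came to 818 and 768 (WT pre-pro-B), 549 (the lone WT pro-B), 553 and 1070.2 (Lf-/- pre-pro-B), and 765 and 857 (Lf-/- pro-B), which overlapped between genotypes. The sum was lowest in WT pro-B and highest in Lf-/- pre-pro-B replicate 2, and Ccnb2 or Pcna was the most abundant. Limma called 1 of the 9919 genes that passed through both genotypes lower, and 3485 of them lay below 0. Of 18 neutrophil granule genes, 1 fell (Ltf), 13 lay below 0 and the median was -0.50 (-0.35 without that library). Their sums overlapped between genotypes, but without S100a8 they lay between 208741 and 293739 in the WT and between 123724 and 204995 in the Lf-/- libraries, and after median-ratio scaling they overlapped either way. Of 12 monocyte and macrophage genes, 0 were called, with a median of -0.10 (-0.22 without that library) and with Ly6c2 the most abundant. At an unadjusted p under 0.05, 2 were lower, as were 63 of the 9919 genes. Of the 12 genes, 5 lay above and 7 below 0, and in pro-B cells 8 lay above and 4 below. After median-ratio scaling, 1 lay above and 11 below with stage as a term (median -0.39). At that p 5 were then lower, as were 345 of 9864 genes. In pro-B cells 4 then lay above and 8 below. Their sums were 1222, 2069 and 1128 in the WT libraries and 689 to 1089 in the Lf-/- libraries, but without Ly6c2 they overlapped, from 114 to 265 in the WT and from 126 to 256 in the Lf-/- libraries. Of 12 T and NK cell genes, 11 passed the filter, 4 of them (Cd3e, Cd8a, Klrb1c and Prf1) through the Lf-/- libraries alone. Of the other 7, limma called 0, and the median was 0.44 (0.71 without that library). At an unadjusted p under 0.05, 1 was higher and 1 lower, compared with 603 and 63 of the 9919 genes. Nkg7, at -1.09, was the only 1 of the 7 below 0 with all libraries, and 6 of the list were at 0 in Lf-/- pre-pro-B replicate 2. Nkg7 also made up most of each sum, and the sums overlapped, from 910.0 to 1300.4 in the WT and from 458 to 1025 in the Lf-/- libraries. After median-ratio scaling they did not, from 982 to 1393 and from 349 to 907. Without Nkg7 the sums came to 16.9 to 26.6 in the WT libraries, 11.1 in Lf-/- pre-pro-B replicate 1 and 104 to 134 in the other Lf-/- libraries. Gzma and Lck were among the 6 genes above 0, at 1.95 (adjusted p = 0.689 from limma) and 1.68 (adjusted p = 0.638 from limma). The plot of summed levels shows 5 of these lists.

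**Figure D4:**
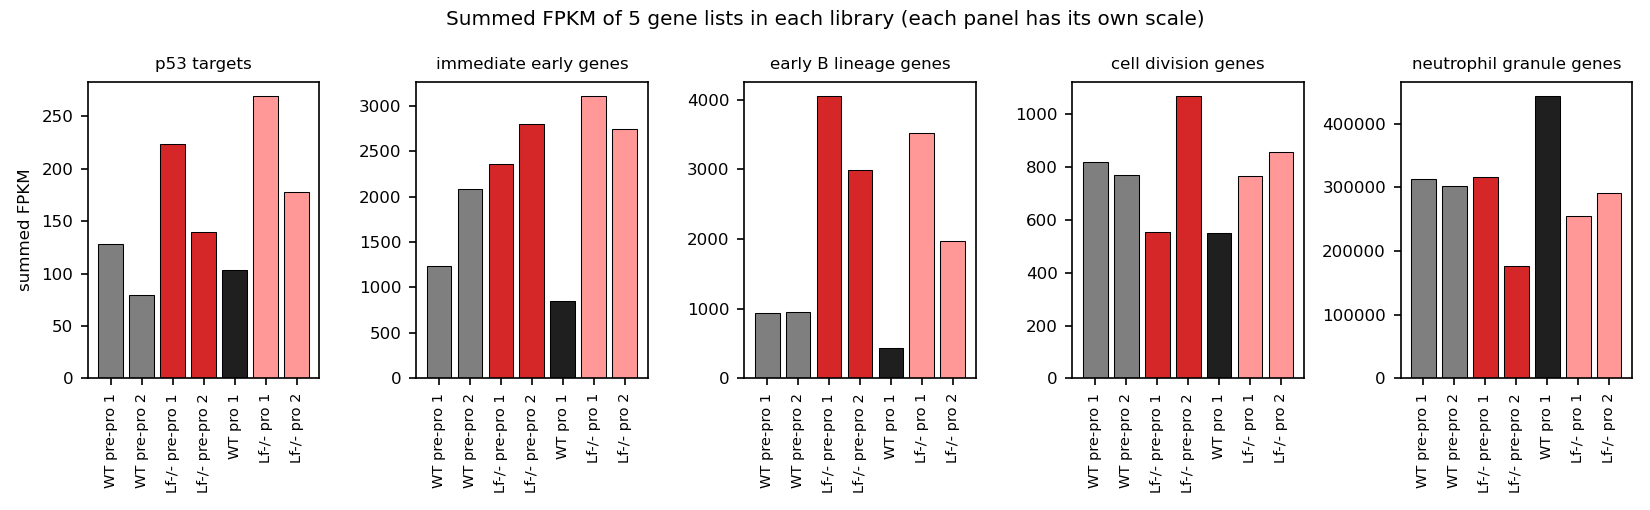
Summed FPKM (y axis, from 0, each panel with its own scale) of the p53 targets, immediate early genes, early B lineage genes, cell division genes and neutrophil granule genes in the 7 libraries (x axis; grey and black, WT; red and pink, Lf-/-). Each bar is 1 library. In the first 3 lists each of the 4 Lf-/- libraries was above each of the 3 WT libraries, and in the other 2 lists the genotypes overlapped, with all genes of a list summed.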

How the data were processed

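The authors deposited a table for each library with 1 FPKM value for each of 52550 genes; the unit was inferred from the values. The submitters' processing notes name GRCm38, TopHat, Cufflinks, HTSeq and DESeq without versions. Genes were matched to GENCODE M21 by identifier (52403 of 52550). Values were transformed to log2(FPKM + 1), and this log2(FPKM + 1) scale understates the change of low genes. A gene was tested where 2 or more of the compared libraries reached 1 FPKM. Limma 3.58.1 in R 4.3.3 fitted these genes, the variance following the mean, two-sided, with Benjamini-Hochberg adjustment over all of them. Pre-pro-B cells were fitted alone, and both stages were fitted together with stage or genotype as a term. The interaction used 1 mean per group, which assumes that the single WT pro-B library varied like the other groups. In pro-B cells, differences were counted at 1 or more where both Lf-/- libraries lay on the same side of WT. The fits were run on simulated data in which all libraries varied alike. The libraries here did not, so this checked the code and not the error rates in these data.

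Groups came from the library labels. The p53 targets and the gene lists were chosen with earlier results of these data known. The genes named were the 10 targets, Ltf, Trp53, Mdm4, Ppm1d, the 4 largest rises and 4 largest falls of the other p53 pathway genes with stage as a term, the 3 nearest profiles to Cdkn1a and to Mdm2, and of each other list the most abundant gene and at most 3 more with the largest change. Genes overlapping a target, genes that passed the filter through 1 genotype alone and some of the genes listed at 0 were named besides. Alternatives were a pseudocount of 0.1, no filter, at least 1 FPKM in every library, median-ratio scaling, quantile normalization, the replicate number as a block, all 7 libraries with 1 mean per group, each library left out, and, chosen after seeing the data, scaling to the FPKM outside the neutrophil granule list. Other steps used Python 3.11.15 with pandas 2.3.3 and numpy 2.4.6.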

Additional observations from a re-analysis of the deposited data

How the results depend on the processing

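Of 613 differences of targets and regulators under the alternatives, 537 kept their sign, size and call, 57 reversed, 2 were weaker, 7 stronger and 10 moved in size, and 137 of 190 counts and medians kept. In pre-pro-B cells, quantile normalization put Bbc3 at 0.083. In pro-B cells a pseudocount of 0.1 gave 2853 of 10793 genes and 4 of 8 targets past a difference of 1 (Ccng1, Btg2, Trp53inp1 and Sesn2). Requiring 1 FPKM in every library gave 943 of 6668 genes and 1 of 6 targets (Btg2). Median-ratio scaling gave 823 of 10737 genes and 0 targets in pro-B cells, a median of the targets of 0.24, Gadd45a at -0.12, Bbc3 at -0.47 and Mdm2 at -0.34. Quantile normalization gave 833 genes, a median of 0.24, Gadd45a at -0.0055, Bbc3 at -0.50 and Mdm2 at -0.40. Scaling outside the neutrophil granule list put Bbc3 at -0.11 and Mdm2 at -0.0058. With 1 mean per group over 7 libraries, 0 genes and 0 targets were called in either stage. With stage as a term, limma called 9 genes at a pseudocount of 0.1, 0 without a filter, 63 with 1 FPKM in every library, 7 after median-ratio scaling, 11 after quantile normalization and 12 after scaling outside the neutrophil granule list. Gadd45a was then at -0.30, -0.27 and -0.11 under the 3 scalings. Between stages, 0 genes were called at a pseudocount of 0.1, 0 without a filter, 6 with 1 FPKM in every library and 0 after quantile normalization, and Cdkn1a was at 0.035 after quantile normalization and at 0.090 after scaling outside the neutrophil granule list. For the interaction, 122 genes were called without a filter. Its median over the targets was -0.017 after median-ratio scaling and -0.14 after quantile normalization. Cdkn1a was at -0.40, -0.39 and -0.062 under the 3 scalings, and Bbc3 at -0.094 and -0.50 under the first 2. After median-ratio scaling, 545 genes had all Lf-/- libraries above all WT libraries, 653 had them below, and 0 targets were above.

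The replicate number was tried as a block. WT and Lf-/- samples share only this number, while labels such as KO1 recur in both stages. Whether a recurring label marks the same mouse was not given in the sources used here, and the other fits took the libraries as independent. The correlations of replicate deviations between groups were 0.039, 0.053 and -0.013 over 10793 genes, the last of them between the 2 Lf-/- groups. With the block, 65 of 9720 genes were called in pre-pro-B cells and 0 targets, 22 of 10793 genes with stage as a term and 0 targets, and 0 genes between stages. Bbc3 was at 0.17 with stage as a term and block, and the median of the targets between stages was -0.077 with the block.

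Leaving out 1 library at a time, the genes called in pre-pro-B cells ranged from 0 to 3338 and the targets called from 0 to 2 (Ccng1 and Trp53inp1). The largest number came without Lf-/- pre-pro-B replicate 1, where the spread came from the 2 WT libraries and the lone Lf-/- library was assumed to vary alike. There Ccng1 ranged from -0.19 to 1.11, Gadd45a from -0.84 to 0.31, Bbc3 from -2.22 to 1.38, Sesn2 from -0.22 to 0.87, Trp53 from -0.29 to 0.83 and Ppm1d from -0.29 to 0.19. Trp53inp1 was at 2.09 at most. In pro-B cells the targets past a difference of 1 ranged from 1 to 4 and all genes past it from 1371 to 2071. The 4 targets (Cdkn1a, Btg2, Trp53inp1 and Sesn2) came without Lf-/- pro-B replicate 2, among 2071 of 10461 genes, and there was 1 otherwise. Across these fits, Bbc3 ranged from -0.42 to 0.62 and Mdm2 from -0.15 to 0.53. With stage as a term, the genes called ranged from 0 to 123, the targets called from 0 to 1, Gadd45a from -0.27 to 0.41, Bbc3 from -1.06 to 0.74 and Ppm1d from -0.051 to 0.58. Between stages, the genes called ranged from 0 to 36, the median of the targets from -0.22 to 0.21, Cdkn1a from -0.41 to 0.17, Ccng1 from -0.62 to 0.023, Btg2 from -0.24 to 0.46 and Sesn2 from -0.082 to 0.47. For the interaction, the genes called ranged from 0 to 561 and the median of the targets from -0.15 to 0.74. Cdkn1a ranged from -0.54 to 0.65, Ccng1 from -0.28 to 1.02, Btg2 from -0.14 to 1.27, Bbc3 from -1.28 to 2.32, Trp53inp1 from -1.24 to 0.38 and Sesn2 from -0.023 to 1.07. Without Lf-/- pre-pro-B replicate 2, 1717 genes had all Lf-/- libraries above all WT libraries.

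The pro-B comparison rests on 1 WT library, and each other group has 2 libraries. Lf-/- pre-pro-B replicate 2 differs from the other libraries in detected genes and in values listed at 0. The share of neutrophil granule RNA differs between libraries, and B lineage and mature B cell RNA differ between genotypes, and what part this has in the differences of the targets was not tested. RNA levels say nothing of p53 protein or of its activity. Phlda3 and Zmat3 did not pass the filter, and without a filter limma called neither.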
